A study of Mus musculus with 8 samples.

Results

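Chromatin accessibility was described at 9 genes that mark mast cells, basophils and eosinophils: Hdc, Mcpt8, Cpa3, Prss34, Prg2, Epx, Il1rl1, Fcer1a and Gata1. A region belonged to the set when the nearest RefSeq protein-coding gene within 50 kb was one of the 9, which gave 20 of 61196 regions, linked to 8 of the 9 genes. No region met the rule for Prss34. The data were ATAC-seq counts, a measure of open DNA read through insertions of the Tn5 transposase, from sorted mouse bone marrow progenitor cells in 4 groups of 2 libraries. The groups were GMP-MoP, proNeu2, proNeu1 and cMoP, each from 5000 sorted cells per tube. The labels name no genotype, treatment, strain or age that would tell them apart, and how each group was gated is not given here. The 2 libraries of a group are labelled biological replicates, but no label ties them to different animals, so a p-value reflects only library-to-library spread, which may be technical in part.

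Mast cells, basophils and eosinophils are granule-bearing cells of allergic and anti-parasite immunity. Their bone marrow progenitors are distinct from, or branch off near, those of neutrophils and monocytes. The cells store proteases, cationic proteins and histamine in granules and release them when surface receptors for IgE or cytokines such as IL-33 are engaged. The transcription factors GATA1 and GATA2 act in their formation. Hdc, which encodes the histamine-making enzyme histidine decarboxylase, is also known to be active in immature myeloid cells outside these lineages.

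The 8 libraries held 1388525 to 1907810 counts in the 61196 regions, with a median of 11 to 18 counts per region. Levels are given as CPM, the usual depth-scaled count, taken over tested regions after TMM scaling, as library values or as mean ± SD (n = 2), and differences as log2 fold changes with their standard error (SE). The test was edgeR's quasi-likelihood test over 47506 regions that passed a minimum-count filter, with Benjamini-Hochberg adjustment over all of them, and a difference counted as called at an adjusted p under 0.05. Each library is a bulk of sorted cells, so fewer cells with an open site and a less open site in each cell cannot be told apart. Each group enters 3 of the 6 comparisons, so comparisons that share a group share its libraries.

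The 20 regions were 512 to 1769 bp wide. Of these, 11 lay inside a gene body, 4 within 1 kb of a gene end and 5 outside genes, and none overlapped more than 1 gene. The classes follow the RefSeq gene interval, so the 11 include the Hdc region that spans the listed start site. Hdc had 6 regions, Il1rl1 5, Cpa3 4, and Gata1, Prg2, Mcpt8, Epx and Fcer1a 1 each. Counts were low: the median member region held 62 counts over the 8 libraries, against 106 for all regions, and its counts per kb of width exceeded those of 39.1% of all regions. Of the 20 regions, 12 passed the filter and were tested. The 8 that did not, 3 of Cpa3, 2 of Il1rl1 and those of Prg2, Epx and Fcer1a, held 12 to 55 counts over all libraries and at most 15 in any one.

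A region covered the listed start site of 3 genes, Hdc, Mcpt8 and Fcer1a. That of Fcer1a held only 13 counts over all libraries and was not tested. In the RefSeq promoter table (GRCm38.p6, the assembly of mm10), 8 of the 9 genes matched by symbol, Prg2 being the exception, with 9 windows that run from 250 bases before to 50 after a start site. The windows of Hdc (chr2:126618629-126618928) and Mcpt8 (chr14:56085148-56085447), both on the minus strand, are printed because each lies under a region that differed between groups. All 9 windows were searched on both strands for 4 motifs: GATAA for GATA factors, TTGCNNAA for C/EBP factors, AGGAAG for ETS factors and TGTGGT for RUNX factors. Capitals mark the matches.
Hdc: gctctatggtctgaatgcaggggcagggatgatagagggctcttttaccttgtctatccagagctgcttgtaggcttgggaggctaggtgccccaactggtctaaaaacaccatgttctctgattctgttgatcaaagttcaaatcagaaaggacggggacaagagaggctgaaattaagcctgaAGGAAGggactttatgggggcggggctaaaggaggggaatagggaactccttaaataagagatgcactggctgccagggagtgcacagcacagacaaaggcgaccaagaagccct
Mcpt8: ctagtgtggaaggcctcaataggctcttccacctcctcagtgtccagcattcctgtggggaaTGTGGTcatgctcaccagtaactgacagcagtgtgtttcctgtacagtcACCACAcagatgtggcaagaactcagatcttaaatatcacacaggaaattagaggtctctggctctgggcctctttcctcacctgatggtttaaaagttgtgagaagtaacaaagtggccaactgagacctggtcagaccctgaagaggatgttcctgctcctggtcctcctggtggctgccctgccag
The Hdc window held 1 AGGAAG match, a motif found in 35.4% of all 32851 windows. The Mcpt8 window held 2 TGTGGT matches, 1 per strand, and 16.8% of all windows hold at least 1. Neither held the letters GATAA (25.4% of windows) or TTGCNNAA (10.8%), none of their matches overlapped, and a match is a description of letters, not of binding. GATA followed by G was not searched, and the Hdc window holds GATAG, so a lack of GATA sites cannot be read from this. GATAA occurred in the windows of Cpa3, Prss34 and Fcer1a and in both of Il1rl1, but not in those of Gata1 and Epx. The Fcer1a window, under its untested region, also held 1 TTGCNNAA and 1 TGTGGT match. The Hdc window had 50.7% G and C and 3 CpG, the Mcpt8 window 51.0% and 0 CpG, and the median window 52.7% and 7 CpG.

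Of the 12 tested member regions, 8 regions of 4 genes (Hdc, Mcpt8, Cpa3 and Il1rl1) were called in at least 1 comparison. The share of all tested regions called in at least 1 comparison was not computed. It cannot be under the 52.6% called in proNeu2 against cMoP alone, so this count does not set the member genes apart. In GMP-MoP against cMoP, 1 member region was higher and 0 lower, where 5.45% of all tested regions were called (1.98% higher, 3.47% lower). In GMP-MoP against proNeu1, 1 was higher and 1 lower, against 24.1% of all regions (11.6% higher, 12.5% lower). In GMP-MoP against proNeu2, 1 was higher and 4 lower, against 39.2% (20.0% higher, 19.2% lower). The proNeu1 against cMoP comparison had 3 higher and 1 lower, against 42.4% (20.6% higher, 21.9% lower), and proNeu2 against cMoP had 5 higher and 1 lower, against 52.6% (25.2% higher, 27.4% lower). The shares of member regions called, 8.33%, 16.7%, 41.7%, 33.3% and 50% in that order, lay near those of all regions. No member was called in proNeu2 against proNeu1 (0.0758% of all regions), where edgeR gave 1 member region an unadjusted p under 0.05 and DESeq2 called 0. With no filter, all 20 regions were tested: 2 were higher and 4 lower in GMP-MoP against proNeu2 (32.3% of all regions called), 5 and 2 in proNeu1 against cMoP (38.3%) and 8 and 1 in proNeu2 against cMoP (47.6%). The median member log2 fold change was 0.49 in proNeu2 against cMoP, against -0.02 over all regions, and -0.55 in GMP-MoP against proNeu2, against 0.04. With 12 regions of 5 genes, 6 of them of Hdc, these medians describe few loci.

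**Figure D1:**
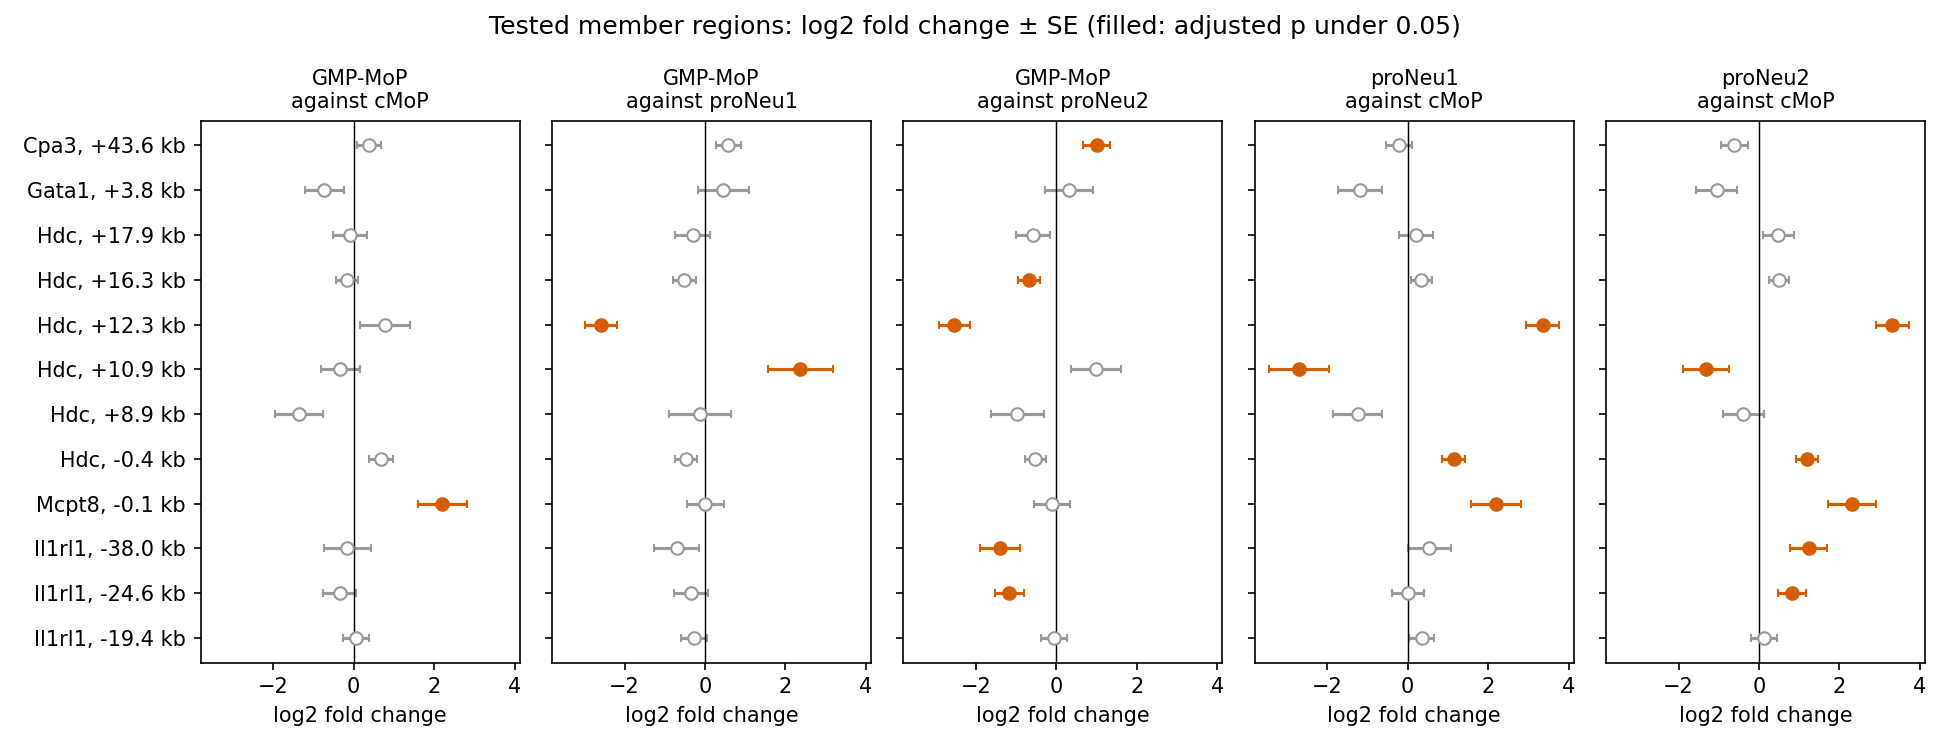
Log2 fold change ± SE at the 12 tested member regions in 5 comparisons, named by gene and by distance of the region centre from the start site, with filled points at an adjusted p under 0.05. The Hdc regions at 12.3 and 10.9 kb sit on opposite sides of 0, at 3.36 and -2.70 in proNeu1 against cMoP.

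The balance of higher and lower calls depended on the scaling or tool. Of all regions called in GMP-MoP against cMoP, 941 were higher and 1649 lower, against 1273 and 1154 with loess offsets and 33 and 4 with DESeq2. With library totals in place of TMM the split was 6893 higher and 4060 lower in GMP-MoP against proNeu1, against 5513 and 5915, and 11596 and 6732 in GMP-MoP against proNeu2, against 9484 and 9125. For proNeu1 against cMoP, 9773 were higher and 10389 lower, against 7960 and 11474 with library totals and 8562 and 8524 with loess offsets. For proNeu2 against cMoP, 11991 were higher and 13018 lower, against 9889 and 14569 with library totals and 11470 and 10884 with loess offsets, so loess offsets turned the majority in both. The few calls of proNeu2 against proNeu1, 4 higher and 32 lower, were 13 and 48 with loess offsets. Library totals shifted the median log2 fold change of all regions by 0.13 in GMP-MoP against proNeu1 and 0.15 in GMP-MoP against proNeu2. The shifts were -0.10 and -0.13 in proNeu1 and proNeu2 against cMoP. No called member region changed direction under any alternative.

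Hdc carried the clearest differences of the set, and they ran in opposite directions at neighbouring sites. A gene-body region at chr2:126605961-126606850, centred 12.3 kb downstream of the start site, was open in proNeu2 and proNeu1 and low in GMP-MoP and cMoP. It had 5.81 and 2.83 CPM in GMP-MoP, 24.3 and 24.6 CPM in proNeu2, 21.2 and 29.2 CPM in proNeu1, and 2.69 and 2.11 CPM in cMoP. The 4 proNeu libraries lay above all 4 others with no overlap. It was lower in GMP-MoP than in proNeu1 (log2 fold change -2.59, SE 0.387, adjusted p = 2.91e-08) and than in proNeu2 (-2.54, SE 0.385, adjusted p = 1.20e-08). It was higher in proNeu1 than in cMoP (3.36, SE 0.414, adjusted p = 1.07e-12) and in proNeu2 than in cMoP (3.31, SE 0.411, adjusted p = 7.71e-13). Those 4 calls held under all 15 alternative settings. GMP-MoP and cMoP averaged 4.32 ± 2.10 and 2.40 ± 0.408 CPM, a difference that was not called (0.77, SE 0.620, adjusted p = 0.562).

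**Figure D2:**
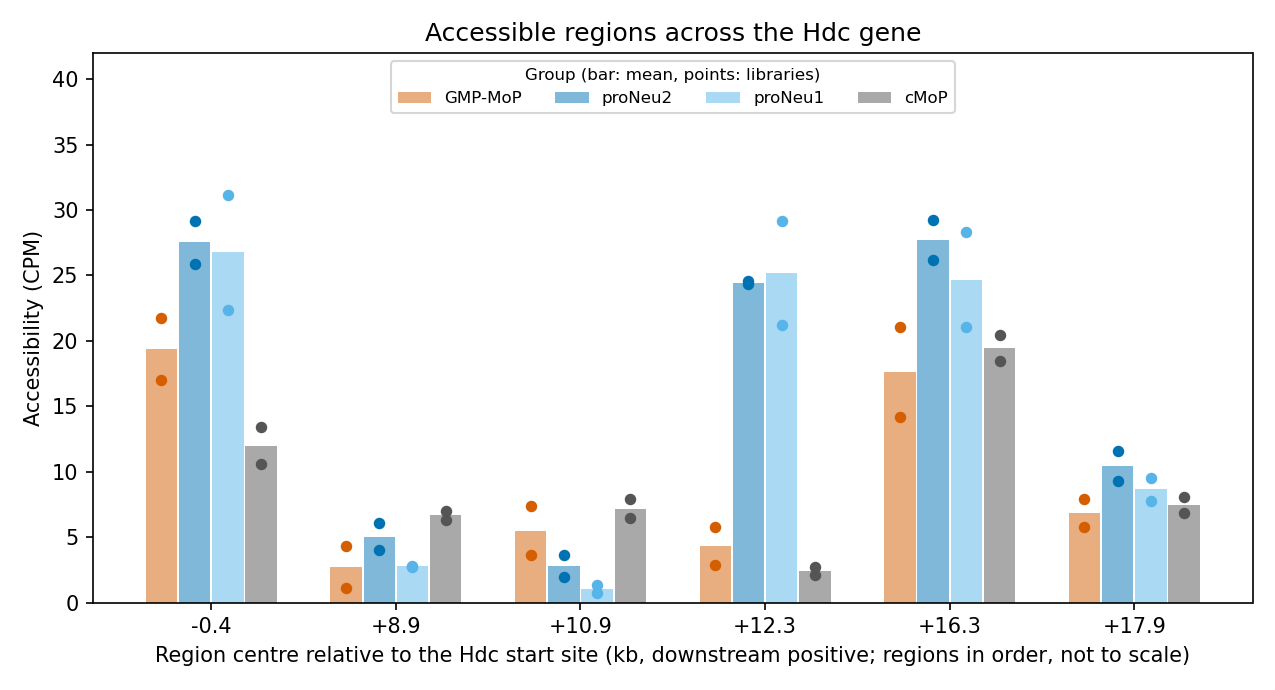
Accessibility (CPM) of the 6 regions linked to Hdc, ordered by the distance of their centre from the start site in kb. Bars are group means and points the 2 libraries of each group, with the 12.3 kb region high in proNeu2 and proNeu1 at 21.2 to 29.2 CPM and the 10.9 kb region highest in cMoP at 6.45 and 7.92 CPM.

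The next region towards the start site of Hdc, chr2:126607423-126608145 at 10.9 kb, had the reverse order of group means. It had 5 and 13 counts in GMP-MoP, 6 and 3 in proNeu2, 1 and 2 in proNeu1, and 12 and 15 in cMoP, so the proNeu1 libraries lay below those of GMP-MoP and cMoP. GMP-MoP held 18 counts against 3 in proNeu1, a ratio per library size of 5.51 (95% exact interval 1.61 to 29.2, counting error only; adjusted p = 0.0194). The ratio of proNeu1 to cMoP, 3 against 27 counts, was 0.145 (0.0281 to 0.470; adjusted p = 0.00144). GMP-MoP against proNeu2 was not called (log2 fold change 0.98, SE 0.623, adjusted p = 0.203). In proNeu2 the level was 2.82 ± 1.17 CPM, against 7.18 ± 1.04 CPM in cMoP, and this was called (log2 fold change -1.31, SE 0.574, adjusted p = 0.0447; -0.10 with loess offsets). These calls were less stable at such counts. The first ended with DESeq2 (adjusted p = 0.200), with loess offsets (0.0990), without GMP-MoP replicate 2 (0.353) and without proNeu1 replicate 1 (0.133) or 2 (0.0639). The second ended with DESeq2 (0.0528) and loess offsets (0.0826). The third ended with DESeq2 (0.235), with loess offsets (0.901), with no filter (0.0577), with the replicate number as a block (0.0528) and without cMoP replicate 1 (0.0838) or 2 (0.229), proNeu2 replicate 1 (0.0760) or 2 (0.283) or GMP-MoP replicate 2 (0.0667).

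The Hdc promoter region, chr2:126618390-126619753, which spans the start site and the window printed above, had 21.8 and 17.0 CPM in GMP-MoP, 29.2 and 25.9 in proNeu2, 31.2 and 22.4 in proNeu1, and 13.4 and 10.6 in cMoP. The cMoP libraries were the lowest and overlapped none of the others. The region was higher in proNeu2 than in cMoP (log2 fold change 1.20, SE 0.277, adjusted p = 9.39e-05) and in proNeu1 than in cMoP (1.15, SE 0.284, adjusted p = 0.000375), under all 15 alternatives. GMP-MoP, at 19.4 ± 3.38 CPM, was between, and none of its 3 comparisons was called (adjusted p = 0.191 against cMoP, 0.186 against proNeu1 and 0.0968 against proNeu2).

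The highest region of Hdc by mean CPM, chr2:126601799-126602937 at 16.3 kb, had 21.1 and 14.2 CPM in GMP-MoP, 26.1 and 29.2 in proNeu2, 28.3 and 21.0 in proNeu1, and 20.4 and 18.5 in cMoP. Both proNeu2 libraries were above both GMP-MoP libraries, and the difference was called (log2 fold change -0.68 for GMP-MoP against proNeu2, SE 0.267, adjusted p = 0.0331). That call held under 8 of 15 alternatives and ended without GMP-MoP replicate 2 (0.391), without proNeu2 replicate 1 (0.0688) or 2 (0.148), with total counts (0.109), with loess offsets (0.0563), with DESeq2 (0.239) and in a fit of the 2 groups alone (0.0634). The other 2 gene-body regions of Hdc were called in no comparison. The one at 17.9 kb averaged 6.87 ± 1.50, 10.4 ± 1.60, 8.64 ± 1.21 and 7.46 ± 0.850 CPM in GMP-MoP, proNeu2, proNeu1 and cMoP. The one at 8.9 kb averaged 2.75 ± 2.28, 5.03 ± 1.48, 2.77 ± 0.0848 and 6.66 ± 0.463 CPM in the same groups.

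Mcpt8 encodes mast cell protease 8, a granule serine protease that marks mouse basophils. Its region, chr14:56084877-56085657, covers the start site and was low in cMoP and open in the other 3 groups. It had 13 and 11 counts in GMP-MoP (9.44 and 6.24 CPM), 10 and 16 in proNeu2 (6.08 and 10.6 CPM), 7 and 15 in proNeu1 (4.96 and 10.2 CPM), and 3 and 3 in cMoP (1.61 and 1.58 CPM). Both cMoP libraries were below all 6 others, which overlapped among themselves. The region was higher than in cMoP in proNeu2 (log2 fold change 2.32, SE 0.594, adjusted p = 0.000440), in proNeu1 (2.20, SE 0.616, adjusted p = 0.00180) and in GMP-MoP (2.21, SE 0.605, adjusted p = 0.0119). The proNeu2 call held under all 15 alternatives. The proNeu1 call ended with DESeq2 (adjusted p = 0.0580) and without proNeu1 replicate 2 (0.124). The GMP-MoP call ended with DESeq2 (0.557) and without GMP-MoP replicate 1 (0.155) or cMoP replicate 1 (0.0806) or 2 (0.102). Between GMP-MoP and the proNeu groups no difference was called (0.01, SE 0.458, adjusted p = 0.993 against proNeu1; -0.11, SE 0.439, adjusted p = 0.863 against proNeu2).

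Mcpt8 lies in a cluster of granule protease genes, and Ctsg, which encodes the neutrophil and monocyte protease cathepsin G, was the next gene, 14228 bp from the region. The highest region of Ctsg, chr14:56104978-56106140, had 35.2 ± 1.52 CPM in GMP-MoP, 31.8 ± 2.87 in proNeu2, 28.4 ± 1.09 in proNeu1 and 34.1 ± 1.82 in cMoP, and was called in none of the 6 comparisons. The Mcpt8 and Ctsg differences were not tested against each other.

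Cpa3 encodes carboxypeptidase A3, a protease of mast cell granules. Its one tested region, chr3:20197742-20199510, lay 16106 bp beyond the end of the gene. It had 21.8 and 18.1 CPM in GMP-MoP, 7.30 and 12.6 in proNeu2, 13.5 and 12.9 in proNeu1, and 13.4 and 16.9 in cMoP. Both GMP-MoP libraries were above all 6 others. The difference from proNeu2 was called (log2 fold change 1.00, SE 0.330, adjusted p = 0.00990), and those from proNeu1 (adjusted p = 0.168) and cMoP (0.533) were not. It ended with DESeq2 (0.140), without GMP-MoP replicate 1 (0.0793) and without proNeu2 replicate 1 (0.248). The other 3 regions of Cpa3, 2 in the gene body and 1 at 1.9 kb upstream of the start site, held 12, 55 and 29 counts over all libraries and were not tested. No region covered the Cpa3 promoter window. Prss34, a protease of basophils and mast cells, had no region to describe.

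The eosinophil granule genes gave few counts. Prg2 encodes the major basic protein, and its region at the gene end, chr2:84980096-84980624, had 4 and 5 counts in GMP-MoP, 7 and 4 in proNeu2, 8 and 3 in proNeu1, and 2 and 1 in cMoP. Epx encodes eosinophil peroxidase, and its region, chr11:87881700-87882330, had 1 and 8 counts in GMP-MoP, 8 and 9 in proNeu2, 4 and 15 in proNeu1, and 4 and 1 in cMoP. At Prg2 both cMoP libraries were the lowest of the 8, while at Epx the GMP-MoP libraries overlapped those of cMoP. Neither region passed the filter. In a fit with no filter, both proNeu groups were called higher than cMoP at Prg2 (adjusted p = 0.0412 for proNeu2 and 0.0383 for proNeu1) and at Epx (0.00962 and 0.00325). The Prg2 ratios were 4.37 for proNeu2 against cMoP (95% exact interval 1.15 to 24.4) and 4.77 for proNeu1 against cMoP (1.26 to 26.6). The unfiltered fit was not repeated with single libraries left out.

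The link of that region to Epx is close to a tie, since it lay 6164 bp from Epx and 6629 bp from the olfactory receptor gene Olfr462. Epx also neighbours Mpo and Lpo, the genes of myeloperoxidase and lactoperoxidase, whose regions were far more open. The highest Mpo region, chr11:87793055-87794324, had 69.9 ± 9.93 CPM in GMP-MoP, 100.8 ± 3.63 in proNeu2, 73.6 ± 12.9 in proNeu1 and 46.1 ± 0.219 in cMoP. The highest Lpo region, chr11:87806111-87807254, had 84.9 ± 5.03 CPM in GMP-MoP, 85.2 ± 6.84 in proNeu2, 96.2 ± 28.9 in proNeu1 and 39.2 ± 3.14 in cMoP. Both were lowest in cMoP, and their part in the counts at Epx was not tested.

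**Figure D3:**
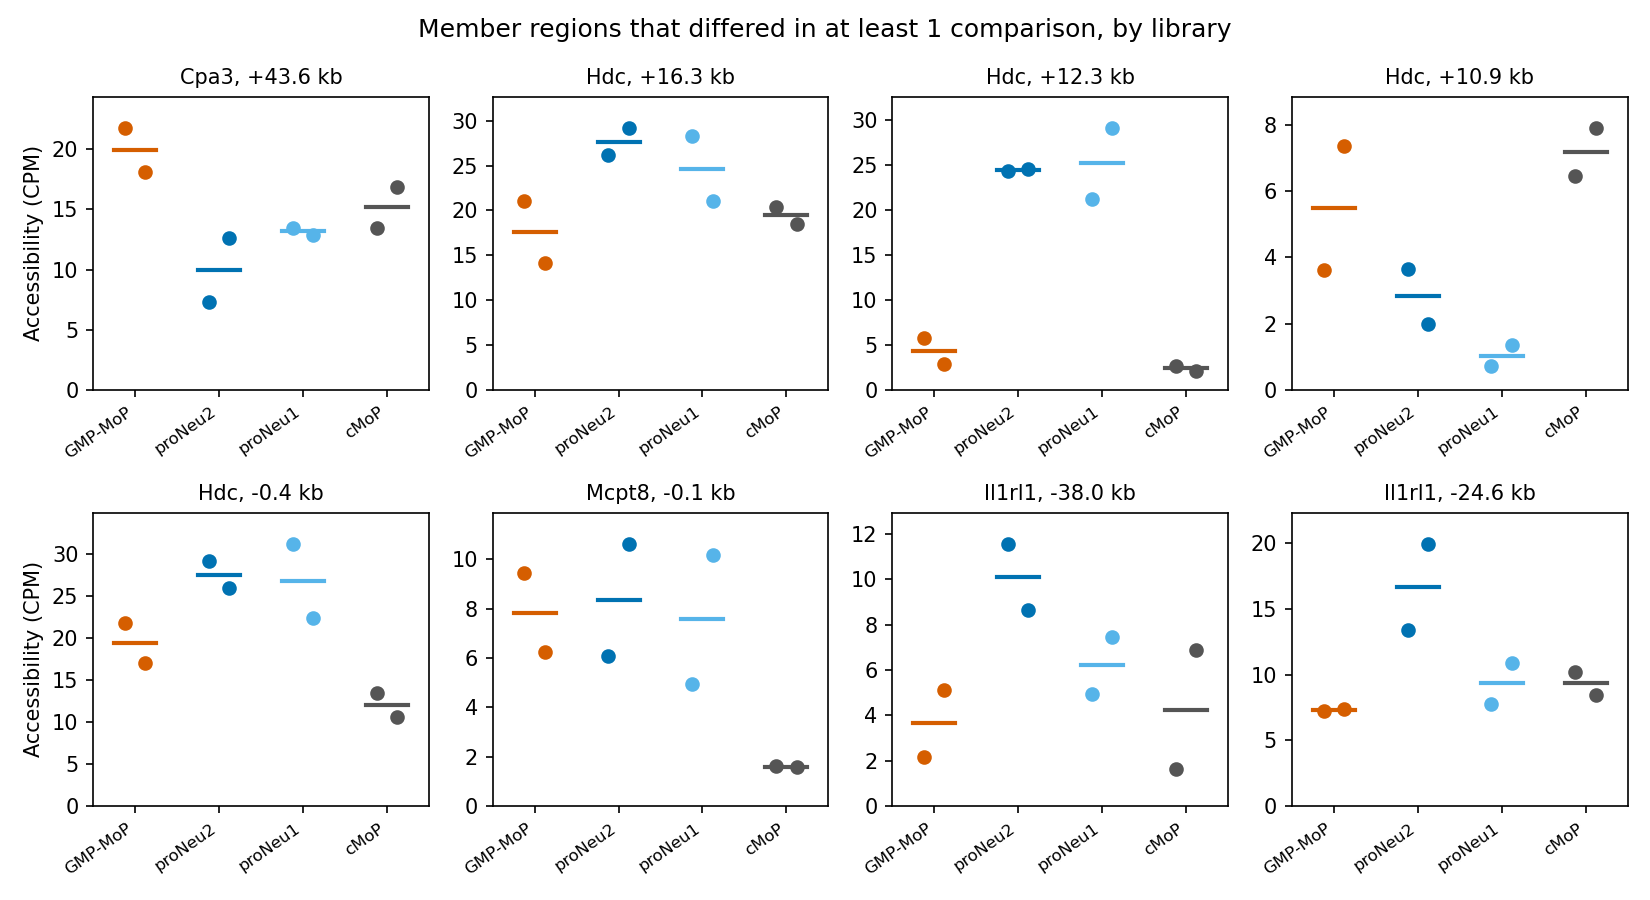
Accessibility (CPM) in each library at the 8 member regions called in at least 1 comparison, titled by gene and by the distance of the region centre from the start site. Points are libraries and lines group means, with both cMoP libraries at 1.61 and 1.58 CPM at Mcpt8 and both proNeu2 libraries above those of GMP-MoP at the 2 Il1rl1 regions.

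Il1rl1 encodes ST2, the receptor for IL-33, which mast cells, basophils and eosinophils carry. None of its 5 regions lay under its 2 listed promoter windows. The tested regions at 38.0 kb and 24.6 kb upstream of the nearest listed start site were highest in proNeu2, and the tested region in the gene body was called in no comparison. The region chr1:40391285-40391884, outside the gene, had 2.18 and 5.1 CPM in GMP-MoP, 11.6 and 8.63 in proNeu2, 4.96 and 7.46 in proNeu1, and 1.61 and 6.86 in cMoP. Its proNeu2 libraries were above all others. It was lower in GMP-MoP than in proNeu2 (log2 fold change -1.39, SE 0.493, adjusted p = 0.0167) and higher in proNeu2 than in cMoP (1.24, SE 0.459, adjusted p = 0.0168). The first call ended with DESeq2 (0.205), without GMP-MoP replicate 1 (0.141) and without proNeu2 replicate 1 (0.159), and its log2 fold change was -2.20 without GMP-MoP replicate 2. The second ended with DESeq2 (0.217), without cMoP replicate 1 (0.329) and without proNeu2 replicate 1 (0.147), and its log2 fold change was 0.59 without cMoP replicate 1 and 2.63 without cMoP replicate 2.

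The region chr1:40404525-40405330 covers the 5′ end of the Il1rl1 gene interval. It had 7.26 and 7.37 CPM in GMP-MoP, 13.4 and 19.9 in proNeu2, 7.79 and 10.9 in proNeu1, and 10.2 and 8.45 in cMoP, with proNeu2 again above all others. GMP-MoP was lower than proNeu2 (log2 fold change -1.17, SE 0.371, adjusted p = 0.00742), and proNeu2 was higher than cMoP (0.82, SE 0.337, adjusted p = 0.0316). The first ended with DESeq2 (0.131), without GMP-MoP replicate 2 (0.0605) and without proNeu2 replicate 2 (0.146). The second ended with DESeq2 (0.245), with total counts (0.0759), without cMoP replicate 2 (0.146) and without proNeu2 replicate 2 (0.286). At neither region was proNeu2 called different from proNeu1 (adjusted p = 0.664 and 0.450).

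The highest Il1rl1 region, chr1:40409700-40410544 in the gene body, had 13.1 and 14.2 CPM in GMP-MoP, 15.2 and 13.3 in proNeu2, 12.0 and 21.0 in proNeu1, and 15.1 and 11.1 in cMoP. The groups overlapped, and no comparison was called. The gene-body region chr1:40415488-40415999 did not pass the filter, with 4 and 6 counts in GMP-MoP, 1 and 0 in proNeu2, 1 and 0 in proNeu1, and 7 and 7 in cMoP. Both GMP-MoP and both cMoP libraries were above all 4 proNeu libraries. With no filter it was called lower in proNeu2 than in cMoP (1 against 14 counts, ratio 0.0851, 95% exact interval 0.00201 to 0.559, adjusted p = 0.0131) and in proNeu1 than in cMoP (1 against 14, ratio 0.0929, 0.00220 to 0.611, adjusted p = 0.0215). GMP-MoP was called higher than proNeu2 there (10 against 1, ratio 10.03, 1.43 to 435.4, adjusted p = 0.0409). Against proNeu1 it was not called (10 against 1, ratio 9.19, 1.31 to 398.8, adjusted p = 0.0735). The fifth region, chr1:40392432-40393075, held 53 counts in all, at 2.27 to 5.31 CPM, and was not tested.

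Fcer1a encodes the IgE-binding chain of the high-affinity IgE receptor. Its region, chr1:173226934-173227505, covers the start site and had 1 and 1 counts in GMP-MoP, 4 and 0 in proNeu2, 3 and 1 in proNeu1, and 1 and 2 in cMoP. The 13 counts in all put it above 1.55% of regions per kb, and no difference between groups was detectable at this depth.

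Gata1 encodes a transcription factor of erythroid cells, megakaryocytes, mast cells and eosinophils. Its region in the gene body, chrX:7963756-7964471, had 9 and 6 counts in GMP-MoP, 3 and 9 in proNeu2, 3 and 7 in proNeu1, and 14 and 16 in cMoP. Both cMoP libraries were above all 6 others, but neither proNeu1 against cMoP (log2 fold change -1.19, SE 0.541, adjusted p = 0.0644) nor proNeu2 against cMoP (-1.05, SE 0.516, adjusted p = 0.0752) was called. Each was called under 2 of 15 alternatives. In a fit of counts summed per gene, where Gata1 keeps this 1 region, the adjusted p-values were 0.0413 and 0.0411. The erythroid and megakaryocyte genes, a list of 14 with 35 tested regions, had 9 regions called higher and 5 called lower when proNeu1 was set against cMoP, and 9 and 9 when proNeu2 was. These are 40% and 51.4% of its tested regions, near the 42.4% and 52.6% of all regions.

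Summed over their regions, the member genes gave the following order. Hdc totalled 56.5 ± 8.48 CPM in GMP-MoP, 97.9 ± 4.26 in proNeu2, 89.1 ± 4.20 in proNeu1 and 55.2 ± 4.10 in cMoP. Cpa3 totalled 27.7 ± 0.131, 14.4 ± 4.03, 20.8 ± 1.62 and 24.5 ± 4.20 CPM in the same groups, with proNeu2 below the 3 others. Il1rl1 totalled 31.0 ± 1.80, 46.4 ± 1.08, 36.9 ± 10.1 and 34.1 ± 1.19 CPM. In the fit of 14839 summed genes, 5 members passed the filter. Of these, 1 was called in GMP-MoP against cMoP (3.42% of all summed genes called), 1 in GMP-MoP against proNeu1 (28.5%), 2 in GMP-MoP against proNeu2 (47.0%), 3 in proNeu1 against cMoP (41.0%) and 4 in proNeu2 against cMoP (54.3%). Hdc was lower in GMP-MoP than in proNeu2 (log2 fold change -0.66, SE 0.152, adjusted p = 0.000351) and than in proNeu1 (-0.54, SE 0.157, adjusted p = 0.00752), and higher than cMoP in proNeu2 (0.68, SE 0.147, adjusted p = 0.000117) and proNeu1 (0.55, SE 0.152, adjusted p = 0.00277). GMP-MoP against cMoP was not called (0.01, SE 0.163, adjusted p = 0.984). Cpa3 was higher in GMP-MoP than in proNeu2 (1.10, SE 0.275, adjusted p = 0.000964) and lower in proNeu2 than in cMoP (-0.93, SE 0.273, adjusted p = 0.00343). Il1rl1 was called in no comparison, and Mcpt8, with its 1 region, had its 3 calls against cMoP. The sums were not refitted with single libraries left out.

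**Figure D4:**
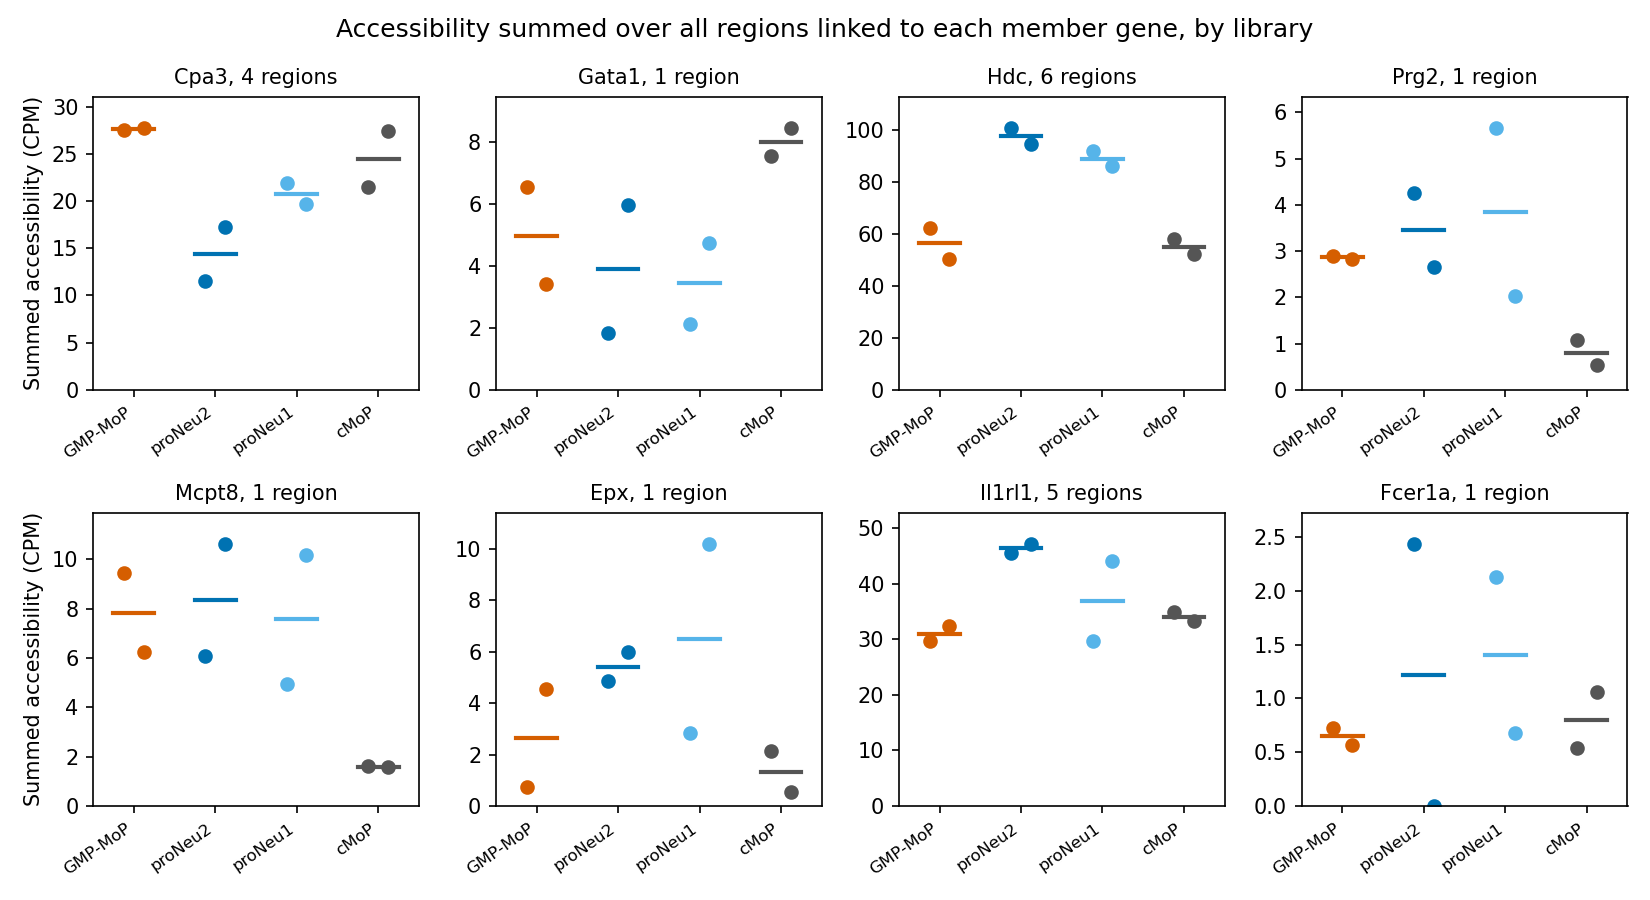
Accessibility summed over the linked regions of each of the 8 member genes with a region (CPM), by library, with lines at group means. Hdc reads 94.9 to 100.9 CPM in proNeu2 and 52.3 and 58.1 CPM in cMoP, and Cpa3 is lowest in proNeu2.

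A second list of 30 mast cell, basophil and eosinophil genes had 27 genes with a region and 81 tested regions. Its calls went in both directions, as those of all regions did: in GMP-MoP against cMoP 3 regions were called higher and 2 lower, with 10 and 10 in GMP-MoP against proNeu1, 21 and 13 in GMP-MoP against proNeu2, 13 and 22 in proNeu1 against cMoP, and 17 and 30 in proNeu2 against cMoP. In that order 6.17%, 24.7%, 41.98%, 43.2% and 58.0% of the list's regions were called, near the 5.45%, 24.1%, 39.2%, 42.4% and 52.6% of all regions. The gene body of Cd63, a granule tetraspanin whose surface display marks activated basophils, was more open in both proNeu groups than in cMoP. Its region chr10:128909326-128911087 had 37.9 ± 11.1 CPM in GMP-MoP, 76.7 ± 2.43 in proNeu2, 69.3 ± 3.10 in proNeu1 and 19.5 ± 3.64 in cMoP (log2 fold change 1.98 for proNeu2 against cMoP, SE 0.202, adjusted p = 7.80e-18). Its region chr10:128899993-128901311 had 9.94 ± 4.43, 37.9 ± 4.83, 26.7 ± 2.29 and 5.06 ± 0.311 CPM in the same groups (-1.98 for GMP-MoP against proNeu2, SE 0.287, adjusted p = 2.37e-09). Alox5, the 5-lipoxygenase of leukotriene synthesis, had 9.10 ± 1.57, 31.3 ± 5.53, 28.0 ± 2.57 and 6.92 ± 1.42 CPM at chr6:116417249-116418309 (2.16 for proNeu2 against cMoP, SE 0.306, adjusted p = 2.42e-10). Those 3 calls held under all 15 alternatives.

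Genes with the opposite order were also present. Il5ra, the interleukin-5 receptor chain of eosinophils, had 9.38 ± 1.97 CPM in GMP-MoP, 1.91 ± 0.118 in proNeu2, 1.39 ± 0.0424 in proNeu1 and 13.6 ± 3.21 in cMoP at chr6:106750228-106750912 (log2 fold change -3.22 for proNeu1 against cMoP, SE 0.568, adjusted p = 5.18e-07). Mitf, a transcription factor of mast cells and melanocytes, had 34.4 ± 0.321, 11.4 ± 0.709, 21.4 ± 3.26 and 41.5 ± 4.74 CPM at chr6:97856328-97858438 (-1.86 for proNeu2 against cMoP, SE 0.259, adjusted p = 1.37e-10). Its region chr6:97788250-97789158 had 8.28 ± 3.69, 2.88 ± 0.627, 1.74 ± 0.543 and 11.5 ± 1.28 CPM (-2.67 for proNeu1 against cMoP, SE 0.565, adjusted p = 2.95e-05). Ikzf2, the Helios transcription factor, had 17.9 ± 2.73, 3.48 ± 0.233, 9.75 ± 3.24 and 19.5 ± 1.38 CPM at chr1:69654722-69655921 (2.35 for GMP-MoP against proNeu2, SE 0.426, adjusted p = 1.73e-06). Ear2, an eosinophil-associated ribonuclease from a family of near-identical genes whose reads may be shared, had 19.2 ± 0.635, 5.06 ± 0.584, 8.95 ± 3.65 and 19.2 ± 3.26 CPM at chr14:44103624-44104820 (1.90 for GMP-MoP against proNeu2, SE 0.387, adjusted p = 2.19e-05). Each of these 5 calls held under all 15 alternatives. Hpgds, the haematopoietic prostaglandin D synthase, had 11.5 ± 2.95, 3.37 ± 3.83, 3.16 ± 2.55 and 14.7 ± 0.566 CPM at chr6:65163974-65165556 (1.89 for GMP-MoP against proNeu1, SE 0.506, adjusted p = 0.00258), a call that ended with DESeq2 (0.128), without GMP-MoP replicate 2 (0.104) and without proNeu1 replicate 2 (0.137).

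Cd200r3, a receptor of basophils and mast cells, had calls in both directions within 1 gene body, as Hdc did. At chr16:44984828-44985492 it held 0 and 1 counts in GMP-MoP, 27 and 14 in proNeu2, 16 and 15 in proNeu1, and 2 and 0 in cMoP. The ratio of proNeu2 to cMoP there was 24.4 (95% exact interval 6.34 to 208.5, adjusted p = 3.28e-09). At chr16:45004316-45005900 it held 19 and 25 counts in GMP-MoP, 4 and 5 in proNeu2, 5 and 1 in proNeu1, and 31 and 40 in cMoP (log2 fold change -2.69 for proNeu2 against cMoP, SE 0.435, adjusted p = 2.43e-08). Both calls held under all 15 alternatives. In proNeu2 against cMoP, Hdc of 3 called member genes and Cd200r3 and Kit of 18 called genes of the second list had regions called in each direction. Other lists held such genes too: 2 of 10 called erythroid and megakaryocyte genes, 2 of 8 monocyte progenitor genes and 1 of 8 neutrophil progenitor genes. The share among all called genes was not computed. A gene with more regions has more occasions for calls in each direction, so the pattern is not particular to Hdc or Cd200r3.

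The 5 calls of the second list in GMP-MoP against cMoP were each lost without at least 1 library. The Cd63 region at chr10:128909326-128911087 (0.93, SE 0.233, adjusted p = 0.00480) lost its call without GMP-MoP replicate 1 (0.266) and without cMoP replicate 2 (0.123). Slc18a2, the vesicular monoamine transporter, held 30 counts in proNeu2, 25 in proNeu1 and 3 in cMoP at chr19:59252496-59253281. The ratios to cMoP were 11.9 (95% exact interval 3.71 to 61.0) for proNeu2 and 10.8 (3.31 to 56.1) for proNeu1. In GMP-MoP it held 15 counts, a ratio to cMoP of 5.98 (95% exact interval 1.69 to 32.2, adjusted p = 0.0412). It lost its call without GMP-MoP replicate 1 (0.453) and without cMoP replicate 1 (0.104) or 2 (0.256). Kit, the stem cell factor receptor, averaged 5.14 ± 3.16 CPM in GMP-MoP, against 1.06 ± 0.740 in cMoP at chr5:75615563-75616121 (2.26, SE 0.741, adjusted p = 0.0473), and lost its call without GMP-MoP replicate 2 (0.570), cMoP replicate 1 (0.272) or 2 (0.0923), or proNeu2 replicate 1 (0.0558), with RLE size factors (0.05004) and with the replicate number as a block (0.0521). The Ear2 region chr14:44091400-44091945 averaged 6.75 ± 0.725 CPM in GMP-MoP, against 15.4 ± 0.554 in cMoP (-1.20, SE 0.374, adjusted p = 0.0332). With loess offsets (0.0567), with no filter (0.0505) and in a fit of the 2 groups alone (0.0646) it was not called. It lost its call without GMP-MoP replicate 1 (0.117) or 2 (0.271) and without cMoP replicate 1 (0.121) or 2 (0.196). Ccr3, the eotaxin receptor, averaged 9.54 ± 0.140 CPM in GMP-MoP, against 19.2 ± 3.26 in cMoP at chr9:124056070-124056966 (a level that fell by 1.00 on the log2 scale, SE 0.326, adjusted p = 0.0454), and its call held under 2 of 15 alternatives, being lost without any 1 of the 8 libraries (0.0564 to 0.328). DESeq2 called none of the 5.

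Gata2 and Ms4a2 were described whatever their calls. The highest region of Gata2, which encodes a transcription factor of mast cells and basophils, had 18.0 ± 1.82 CPM in GMP-MoP, 14.6 ± 0.893 in proNeu2, 16.3 ± 2.95 in proNeu1 and 13.6 ± 2.06 in cMoP at chr6:88165756-88166640, and was called in no comparison. Of its less open regions, 3 had calls, all with proNeu2 or proNeu1 below the group it was set against. The region chr6:88189400-88190169 had 11.3 ± 1.63 CPM in GMP-MoP, 3.73 ± 2.46 in proNeu2, 7.23 ± 3.21 in proNeu1 and 9.57 ± 2.89 in cMoP, and was higher in GMP-MoP than in proNeu2 (log2 fold change 1.57, SE 0.471, adjusted p = 0.00443) and lower in proNeu2 than in cMoP (-1.32, SE 0.474, adjusted p = 0.0136). The gene-body region chr6:88202828-88203701, with 5.98 ± 2.84, 1.58 ± 0.351, 3.13 ± 0.586 and 5.61 ± 2.71 CPM in the same groups, had the same pair of calls (1.81, SE 0.719, adjusted p = 0.0346; -1.77, SE 0.7001, adjusted p = 0.0254). The region chr6:88193409-88194199, with 9.90 ± 0.374, 5.004 ± 2.38, 4.51 ± 0.629 and 11.2 ± 6.17 CPM, was lower than cMoP in proNeu1 (-1.30, SE 0.454, adjusted p = 0.0137) and in proNeu2 (-1.13, SE 0.430, adjusted p = 0.0199). Each of these 6 Gata2 calls ended with DESeq2 (0.107 to 0.186), and each but the first with loess offsets (0.0524 to 0.709). At chr6:88189400-88190169 the call against GMP-MoP ended without GMP-MoP replicate 2 (0.0804) or proNeu2 replicate 2 (0.143), and that against cMoP without cMoP replicate 2 (0.199) or proNeu2 replicate 2 (0.274). At chr6:88202828-88203701 both ended without proNeu2 replicate 1 (0.109 against GMP-MoP and 0.0897 against cMoP) or 2 (0.161 and 0.143) and without cMoP replicate 1 (0.0535 and 0.333), and the first also without GMP-MoP replicate 1 (0.311). At chr6:88193409-88194199 the proNeu1 call ended without cMoP replicate 1 (0.471) or proNeu1 replicate 1 (0.0521) or 2 (0.117), and the proNeu2 call without cMoP replicate 1 (0.590) or proNeu2 replicate 2 (0.281). The highest region of Ms4a2, the beta chain of the IgE receptor, had 2.79 ± 0.865, 8.29 ± 1.41, 3.14 ± 1.57 and 4.52 ± 1.07 CPM at chr19:11611365-11612007. It was lower in GMP-MoP than in proNeu2 (log2 fold change -1.50, SE 0.569, adjusted p = 0.0260), a call lost with DESeq2 (0.200), with total counts (0.0510) and without GMP-MoP replicate 1 (0.111) or 2 (0.0697) or proNeu2 replicate 1 (0.0564) or 2 (0.152).

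Lists of neutrophil and monocyte progenitor genes had calls in these comparisons too, where 52.6% of all regions were called in proNeu2 against cMoP and 39.2% in GMP-MoP against proNeu2. Of 23 tested regions of 8 neutrophil progenitor genes, 18 were called higher and 1 lower with proNeu2 set against cMoP (82.6% called), and 1 and 16 with GMP-MoP set against proNeu2 (73.9%). Of 45 tested regions of 8 monocyte progenitor genes, 4 were called higher and 22 lower with proNeu2 set against cMoP (57.8%), and 16 and 3 with GMP-MoP set against proNeu2 (42.2%), shares near those of all regions. The median log2 fold change in proNeu2 against cMoP was 2.19 for the neutrophil list, -0.90 for the monocyte list and 0.49 for the member regions. The part of these changes in the results at the member genes was not tested.

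The Hdc region at 12.3 kb varied most over the 4 groups by the quasi-likelihood F, so its pattern was set against 19528 regions of at least its mean CPM. The most similar regions by Pearson's r of log2 CPM over the 8 libraries, which share depth and the 4 groups, were linked to Unc13d (r = 0.997), Ppp6r3 (0.996) and Zswim3 (0.995). The Unc13d region, chr11:116076987-116078892, had 31.6 ± 7.75 CPM in GMP-MoP, 81.1 ± 3.95 in proNeu2, 76.4 ± 10.9 in proNeu1 and 24.5 ± 0.437 in cMoP. The Ppp6r3 region, chr19:3575265-3576692, had 54.1 ± 7.63, 100.9 ± 8.49, 103.1 ± 11.5 and 46.9 ± 2.11 CPM in the same groups, and the Zswim3 region, chr2:164804458-164805815, had 60.2 ± 8.24, 116.1 ± 1.78, 108.3 ± 8.94 and 54.1 ± 3.34 CPM.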

How the data were processed

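ATAC-seq libraries of 4 groups of sorted mouse bone marrow progenitors, 2 each, were used as deposited. The deposited values are whole-number read counts for the same 61196 regions in every library. The build was mm10 and the authors named edgeR 3.32.1, HOMER 4.11 and Bowtie2 2.3.5.1, per the submitters' processing notes, which give no roles. No source used here describes Tn5 shifting, duplicate removal or region calling. Regions were linked to the nearest protein-coding interval within 50 kb in RefSeq (GRCm38.p6), which linked 53906 regions (88.1%). Nearness is not evidence of regulation.

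Counts were fitted in edgeR 4.0.16 (R 4.3.3) with TMM, filterByExpr at a minimum count of 10, 1 mean per group and a robust quasi-likelihood fit over 8 libraries, and p-values were adjusted by the Benjamini-Hochberg method. The script was tested on simulated data, with changes placed only in GMP-MoP and in regions of higher mean count than most member regions. That test does not show how often changes are found at counts as low as those of most member regions. Alternatives were DESeq2 1.42.0, other scalings, no filter, a replicate block, the 2 groups alone, each library left out, links within 10 kb and counts summed per gene. Members and lists were chosen with earlier results of these data known. Named were member regions called in any comparison, each member's highest region, up to 6 further genes per comparison by smallest adjusted p, highest regions of Gata2, Ms4a2, Mpo, Lpo and Ctsg, and the 3 most similar genes. Other regions of named genes were added after their values were seen. Exact intervals cover counting error only, since PCR reads are not independent molecules.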

Additional observations from a re-analysis of the deposited data

How the results depend on the processing

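The member regions called were 1 in GMP-MoP against cMoP, 2 in GMP-MoP against proNeu1, 5 in GMP-MoP against proNeu2, 4 in proNeu1 against cMoP, 6 in proNeu2 against cMoP and 0 in proNeu2 against proNeu1. DESeq2 called 0, 1, 1, 2 and 3 in the first 5. In GMP-MoP against proNeu1, loess offsets, the 2 groups alone and sums per gene (genes, not regions) each gave 1. In GMP-MoP against proNeu2, sums per gene gave 2 and links within 10 kb, which keep fewer regions, gave 3. With no filter, proNeu1 against cMoP had 7, since all 20 regions were tested. With each library left out in turn, the counts ranged from 0 to 1, 1 to 2, 2 to 5, 3 to 5, 4 to 8 and 0 to 0 in the same order, where a group left with 1 library is assumed to vary like the others. With the replicate number as a replicate block, the counts were 1, 2, 5, 4, 5 and 0, the lost call being the Hdc region at 10.9 kb in proNeu2 against cMoP (adjusted p = 0.0528). Same-numbered libraries showed little shared deviation (r = -0.0110 to 0.0793 over pairs of groups). At these low counts such values cannot tell whether same-numbered libraries share an animal, a sort or a batch. No called member region reversed.

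Over all regions, the calls were 2590, 11428, 18609, 20162, 25009 and 36, and with DESeq2 37, 2135, 7133, 9242, 14505 and 1. Loess offsets gave 61 in proNeu2 against proNeu1. Leaving out a library gave 816 to 2665, 4749 to 11368, 10847 to 19541, 15223 to 22133, 20517 to 27508 and 0 to 38. The causes were not tested. Depth limits the member regions, whose median total was 62 counts.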
